A study of Mus musculus with 2 samples.

Results

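Mgarp and 9 genes that move, fuse and divide mitochondria were examined in type 5 retinal bipolar cells of the mouse. These 10 genes are 10 of the 32813 gene symbols in the deposited table, and all 10 have a row there. Mgarp was selected on its very high level, so its level is given as a description and is not tested, while Trak1, Trak2, Rhot1, Rhot2, Mfn1, Mfn2, Opa1, Dnm1l and Fis1 were chosen by function. Bulk RNA was sequenced from type 5 cone bipolar cells, which were taken from dissociated retinas of Htr3a-GFP mice by fluorescence sorting. In this line a green fluorescent protein reports an active Htr3a promoter. The series has 1 group of 2 libraries, replicate 1 and replicate 2, called biological replicates by the submitters. There is no control population, so each value is a level in sorted cells and not an enrichment. The labels used here give no age, no sex, no number of mice per library, no agent and no other allele. Values are in TPM units (transcripts, scaled to the same total in each library) and are divided by transcript length. This allows an approximate comparison of levels between genes. The annotation that set the lengths is not stated, and any effect of RNA amplification on the levels was not tested. TPM holds no read depth, the depth of each library is therefore unknown, and no counting interval is given.

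Mitochondria travel along axons and dendrites on microtubules. Miro GTPases in the outer membrane, encoded by Rhot1 and Rhot2, hold the TRAK adaptors, encoded by Trak1 and Trak2, which recruit kinesin and dynein motors. Mitofusins (Mfn1 and Mfn2) fuse the outer membranes and Opa1 the inner membranes of neighbouring mitochondria, while the dynamin-related GTPase encoded by Dnm1l constricts and divides them and Fis1 is an outer membrane protein linked to division. Mgarp, the mitochondria-localised glutamic acid-rich protein, is also known as HUMMR, a protein described in neurons as induced through hypoxia-inducible factor 1 and as a partner of Miro in mitochondrial movement. Bipolar cells release glutamate continuously at axon terminals that hold mitochondria.

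Mgarp is the gene that stands apart in level, and the 250 bases before its RefSeq start are shown because it is also known as a target of hypoxia-inducible factor. The stretch lies on the minus strand at chr3:51396548-51396797 (GRCm38.p6, the assembly also called mm10) and is printed 5′ to 3′. Capitals mark the core of the hypoxia response element, searched as ACGTG, and the GC box bound by Sp1, searched as GGGCGG, both looked for on each strand.

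Mgarp: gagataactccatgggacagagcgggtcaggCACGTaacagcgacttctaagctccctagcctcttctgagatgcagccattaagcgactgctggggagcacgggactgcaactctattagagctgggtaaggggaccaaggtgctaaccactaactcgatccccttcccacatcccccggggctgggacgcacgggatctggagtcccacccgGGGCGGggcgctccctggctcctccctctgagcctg

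The hypoxia element core occurred 1 time, on the opposite strand with its first letter in this print at base -219 from the start, and 16.6% of the 32851 RefSeq windows of this length hold it. The GC box occurred 1 time, at base -36, and 32.7% of windows hold it. The letters GGATTA, the core recognised by the retinal homeobox proteins OTX2 and CRX, did not occur in either direction, and 6.25% of windows hold them. The 2 marked matches do not overlap in this stretch. Of the 10 genes, 3 have a window with the hypoxia core, 10 one with the GC box and 2 one with GGATTA. Here 17 windows were searched because some genes have several starts. These counts are per gene and the shares above are per window, so the 2 cannot be compared. These matches describe letters and not binding.

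Mgarp was among the most abundant RNAs of the sorted cells. It had 4274 TPM in replicate 1 and 3547 TPM in replicate 2, a mean of 3911 ± 514 TPM (SD, n = 2), and it took 0.427% and 0.355% of all TPM. By mean TPM it ranked 11 among all symbols and 5 outside the mitochondrial genome. Among nuclear genes that GENCODE M21 calls protein-coding it ranked 2, below the glycolytic enzyme gene Gapdh at 7585 TPM. In the separate libraries its rank among all symbols was 9 in replicate 1 and 16 in replicate 2.

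The symbols next to Mgarp in mean TPM were mostly transcripts of the mitochondrial genome. Just above it stood mt-Nd1, with 4121 TPM in replicate 1 and 5564 TPM in replicate 2, mt-Cytb, with 4944 and 4704 TPM, and a row spelled MALAT1 in capitals, with 3362 and 4538 TPM. Just below it stood mt-Atp6, with 3454 and 4348 TPM, the small RNA locus Gm25732, with 1413 and 5716 TPM, and mt-Nd4, with 2613 and 4397 TPM. Likeness to Mgarp was measured as the larger of the 2 absolute differences in log2(TPM + 1), 1 for each library. The 6 most alike symbols were mt-Atp6 at 0.31, MALAT1 at 0.36, Atp5b at 0.38, mt-Cytb at 0.41, Pfkp at 0.45 and Gm4792 at 0.57 log2 units. With 2 libraries this likeness is one of level alone. Atp5b, the catalytic beta subunit gene of ATP synthase, had 3291 TPM in replicate 1 and 3634 TPM in replicate 2. Mgarp was above Atp5b in replicate 1 and below it in replicate 2, with log2 differences of 0.38 and -0.03, so their order was not resolved. Pfkp, a phosphofructokinase gene of glycolysis, had 3132 and 2705 TPM.

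Mgarp is a minus-strand gene of chromosome 3, spanning 51388412 to 51396738 (ENSMUSG00000037161.14, GENCODE M21, GRCm38), and has 3 annotated coding transcripts that differ in their start. The outermost starts at 51396738, inside the printed stretch. TPM is given per gene, so the transcript in use is not known.

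Both adaptor genes that link mitochondria to motors were expressed at like levels. Trak1 had 99.4 TPM in replicate 1 and 78.8 TPM in replicate 2, a mean of 89.1 ± 14.5 TPM (SD, n = 2). Trak2 had 92.4 and 81.0 TPM, a mean of 86.7 ± 8.03 TPM. Trak1 was the higher in replicate 1 and the lower in replicate 2, and their ranges overlapped.

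Of the Miro genes, Rhot2 was above Rhot1 in both libraries, by unequal amounts. Rhot2 had 86.1 TPM in replicate 1 and 55.5 TPM in replicate 2 (70.8 ± 21.6 TPM, SD, n = 2). Rhot1 had 49.1 and 49.5 TPM (49.3 ± 0.23 TPM), nearly the same in both. Rhot2 exceeded Rhot1 by 0.80 log2 units in replicate 1 and by 0.16 in replicate 2. All 4442 exonic bases of Rhot2 lie within the span of Gm26694, a long noncoding gene on the opposite strand listed at 0 TPM in both libraries. The labels do not say whether strand was used in counting. Overlap with the exons of Gm26694 was not computed, so whether its RNA could be counted as Rhot2 is not known. The same-strand genes Gm20683 and Wdr90 also overlap Rhot2, and Gm20683, listed at 0 in replicate 1, had 0.91 TPM in replicate 2.

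The mitofusin genes differed in how well the libraries matched. Mfn2 had 62.3 TPM in replicate 1 and 62.0 TPM in replicate 2 (62.2 ± 0.20 TPM, SD, n = 2). Mfn1 had 59.4 and 34.2 TPM (46.8 ± 17.8 TPM), so the 2 genes were close in replicate 1 and apart in replicate 2. Opa1, the inner membrane fusion gene, had 48.7 and 35.4 TPM (42.1 ± 9.37 TPM) and the lowest mean of the 10. Mfn2 exceeded Opa1 in both libraries, by 0.35 and 0.79 log2 units.

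The fission genes were of the same order as the fusion genes. Dnm1l had 65.5 TPM in replicate 1 and 48.0 TPM in replicate 2 (56.7 ± 12.3 TPM, SD, n = 2). Of the exonic bases of Dnm1l, 243 lie within the span of Gm49521, an antisense gene with no row in the deposited table. Fis1 had 62.6 and 22.7 TPM (42.6 ± 28.2 TPM), the largest disagreement between libraries among the 10 genes on the log2 scale. Dnm1l exceeded Fis1 by 0.06 log2 units in replicate 1 and by 1.05 in replicate 2, and it exceeded Opa1 by 0.42 and 0.43 log2 units, a gap that was alike in both.

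**Figure D1:**
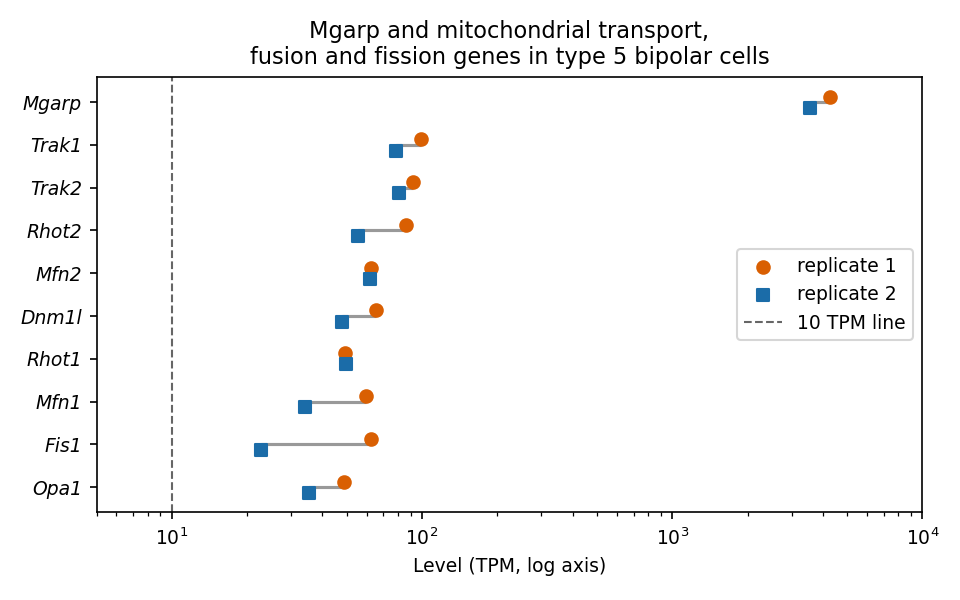
Level of each of the 10 genes in TPM on a log axis, with a circle for replicate 1, a square for replicate 2 and a line joining them; the dashed line is 10 TPM. Mgarp, at 3547 and 4274 TPM, stands apart, and the other 9 genes lie between 22.7 and 99.4 TPM with ranges that overlap from neighbour to neighbour.

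Mgarp was 43.0 times the highest of the other 9 genes in replicate 1 and 43.8 times in replicate 2. It was 6.83 and 7.59 times their sum, which came to 625 TPM in replicate 1 and 467 TPM in replicate 2. By mean TPM the order was Mgarp, Trak1, Trak2, Rhot2, Mfn2, Dnm1l, Rhot1, Mfn1, Fis1 and Opa1. The 9 genes below Mgarp spanned 2.12-fold between their highest and lowest means. Each of the 8 neighbouring pairs among them had overlapping ranges, and Trak2 over Rhot2 was the 1 of these pairs that kept its order in both libraries. Mgarp and Trak1 did not overlap.

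All 9 genes chosen by function were expressed above a line of 10 TPM. Their lowest value in either library was 22.7 TPM, so 9 of 9 had at least 10 TPM in both libraries, against 41.3% of the 19968 genes above 0 in either library. In limma, one-sided with Benjamini-Hochberg adjustment over these 19968 genes and a threshold of 0.05, 9 of 9 were called above 10 TPM, against 32.4% of all genes. As log2(TPM + 1), their median level was 5.84, against 3.22 for all genes tested. limma took each gene's variance from the trend with abundance alone, so how far apart the values of Fis1 were played no role in its call. Above a line of 30 TPM 5 of 9 were called, against 16.2% of all genes.

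Replicate error was moderate for these genes. Of the 10, 9 lay within 2-fold between the libraries, Fis1 being the exception at -1.43 on the log2 scale (replicate 2 minus replicate 1). Of all 8216 genes whose mean lay at 10 to 100 TPM, 72.1% were within 2-fold, a single library had an SD of 0.85 log2 units, and 84.6% differed by less than Fis1. Mfn1 had a difference of -0.78 and Rhot2 of -0.62, and 60.4% and 50.5% of such genes differed by less. Rhot1 and Mfn2 had differences of 0.01 and -0.01, and fewer than 1% of such genes differed by less, namely 0.803% and 0.621%. Mgarp had a difference of -0.27.

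In 9 of 10 genes replicate 2 was the lower library, as in 58.5% of all genes. The median difference of all genes was -0.20 and that of the 10 genes -0.38 log2 units. RNA of the mitochondrial genome made up 24.6% of replicate 2 and 17.3% of replicate 1, and a larger share of it lowers every other TPM. After rescaling without those rows, 8 of 10 genes were lower in replicate 2, and Mgarp differed by -0.14. The share of all genes lower in replicate 2 was not computed on that scale, so this count has no comparison.

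**Figure D2:**
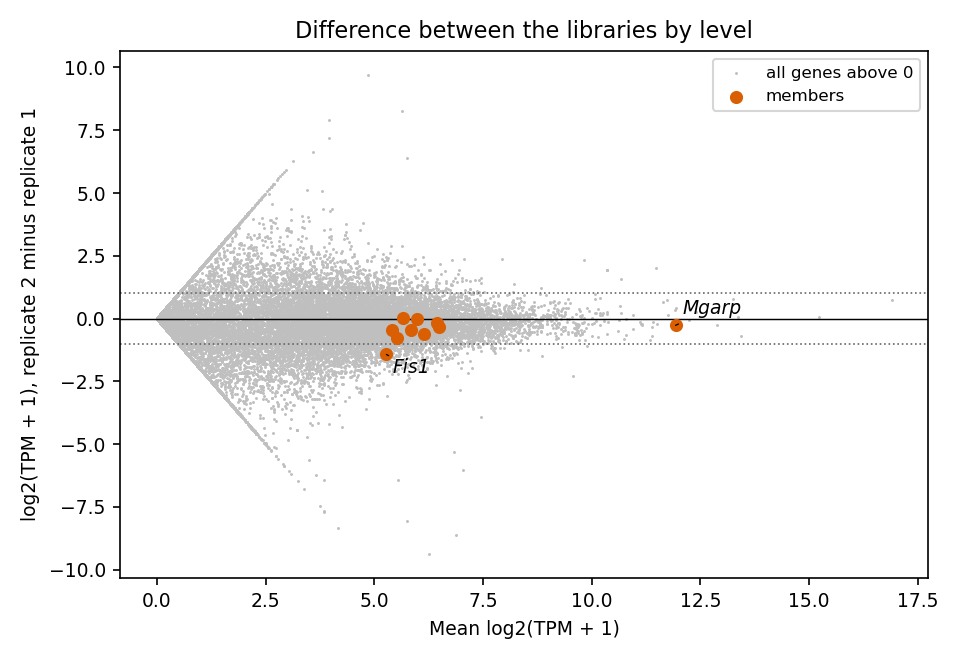
Difference in log2(TPM + 1), replicate 2 minus replicate 1, against the mean log2(TPM + 1); grey points are the 19968 genes above 0 in either library, orange points the 10 genes, and dotted lines mark 2-fold. Fis1, at -1.43, is the 1 gene of the 10 outside the dotted lines, and Mgarp, at -0.27, lies at the right.

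None of the differences between paralogues exceeded the 0.85 log2 units of a single library's SD at this level. Averaged over the libraries, Trak1 minus Trak2 was 0.03 ± 0.10, Rhot2 minus Rhot1 0.48 ± 0.45 and Mfn2 minus Mfn1 0.45 ± 0.55 log2 units (SD, n = 2). An exact test over 2 libraries cannot give a p under 0.5 (two-sided), so none was made. Among the named pairs that were compared, the larger gaps involved Mff, the gene of an outer membrane receptor that brings the Dnm1l product to mitochondria. Its level was 179 TPM in replicate 1 and 215 TPM in replicate 2. Mff exceeded Dnm1l by 1.79 ± 0.49 log2 units and Fis1 by 2.35 ± 1.19 log2 units, in the same direction in both libraries.

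**Figure D3:**
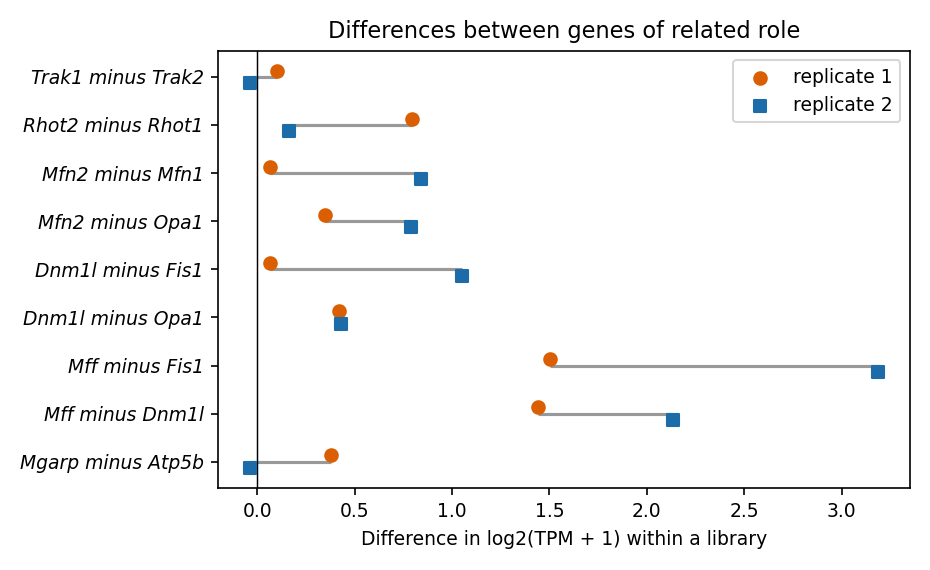
Differences in log2(TPM + 1) between named gene pairs within each library, circles for replicate 1 and squares for replicate 2. Mff lies above Dnm1l and Fis1 by at least 1.44 log2 units in each library, while Trak1 minus Trak2 and Mgarp minus Atp5b change sign between libraries.

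Other genes of mitochondrial transport were expressed as well. Of 17 partners, 14 were called above 10 TPM by limma and 15 had at least 10 TPM in both libraries, where the shares of all genes were 32.4% and 41.3%. Kif1b, a kinesin gene known for mitochondrial and vesicle transport, had 535 TPM in replicate 1 and 381 TPM in replicate 2. The kinesin light chain gene Klc1 had 97.2 and 203 TPM, and Kif5c, a kinesin-1 heavy chain gene, had 168 and 117 TPM. Armcx3, an outer membrane protein gene that interacts with Miro, had 111 and 76.4 TPM. The lowest were Myo19, the gene of a mitochondrial myosin, with 5.37 and 16.9 TPM, and the scaffold gene Disc1, with 8.55 and 5.30 TPM.

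Fusion and fission regulators covered a wide range. Of 10 genes of fusion and OPA1 processing 8 were called above 10 TPM (32.4% of all genes), led by the prohibitin gene Phb2 with 64.8 TPM in replicate 1 and 120 TPM in replicate 2, and by the outer membrane carrier gene Slc25a46 with 103 and 66.7 TPM. The protease genes Yme1l1, with 68.3 and 43.0 TPM, and Parl, with 44.6 and 30.5 TPM, followed. Oma1, a protease that cleaves OPA1 under stress, had 16.5 and 14.0 TPM and was not called. Pld6, the mitochondrial phospholipase gene, had 1.16 and 0.58 TPM.

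Of 13 fission adaptors and regulators 7 were called above 10 TPM, against 32.4% of all genes, and Mff had the highest mean. Gdap1, an outer membrane gene mutated in Charcot-Marie-Tooth neuropathy, had 107 TPM in replicate 1 and 106 TPM in replicate 2, and Mtfp1 of the inner membrane had 78.9 and 71.4 TPM. The ubiquitin ligase gene March5 had 38.0 and 85.0 TPM. At the low end Mtfr2 had 1.19 and 0.47 TPM, and the formin gene Inf2, listed at 0 in replicate 1, had 1.37 TPM in replicate 2.

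Of 9 genes of the cristae junction complex MICOS and its partners 5 were called above 10 TPM, against 32.4% of all genes. Minos1 had 175 TPM in replicate 1 and 156 TPM in replicate 2, and Immt, which encodes mitofilin, had 125 and 83.1 TPM. Apoo had 34.4 and 39.6 TPM and Dnajc11 had 44.5 and 28.2 TPM. Apool had 14.9 and 8.13 TPM, and Chchd6 had 18.0 and 1.10 TPM, far apart between the libraries.

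Of 12 mitophagy genes 7 were called above 10 TPM, against 32.4% of all genes. Among them were the autophagy adaptor gene Sqstm1 with 235 TPM in replicate 1 and 171 TPM in replicate 2, and the receptor genes Bnip3 with 170 and 154 TPM and Bnip3l with 92.5 and 121 TPM. Pink1, the kinase gene that starts parkin-dependent mitophagy, had 96.8 and 126 TPM. Park2, the gene of parkin itself, had 5.48 and 5.21 TPM and Calcoco2 had 1.40 and 1.19 TPM, and neither was called.

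Outer membrane import and porin genes had 7 of 10 called above 10 TPM, against 32.4% of all genes. Vdac1, the main porin gene, had 500 TPM in replicate 1 and 543 TPM in replicate 2, with Vdac2 at 177 and 184 TPM and Vdac3 at 73.1 and 78.9 TPM. The import receptor gene Tomm20 had 98.9 and 75.5 TPM. Tomm6, with 12.2 and 30.9 TPM, and the import pore gene Tomm40, with 13.3 and 23.8 TPM, had the lowest means. Tomm7, a small import subunit gene, had 5.61 and 58.8 TPM, far apart between the libraries. Of 9 genes of abundant mitochondrial proteins 8 were called, with Ndufa4 at 635 and 685 TPM, Cox4i1 at 558 and 696 TPM and Atp5a1 at 529 and 345 TPM below Atp5b. Uqcrc1, with 40.8 and 28.4 TPM, and the cytochrome c gene Cycs, with 11.8 and 18.1 TPM, were the lowest of them. On the log2(TPM + 1) scale this list had a median of 8.72, against 5.74 for import and porins and 5.84 for the 9 transport, fusion and fission genes. None of its members had a higher mean TPM than Mgarp.

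Hypoxia pathway genes, listed because Mgarp is known as a target of that pathway, had 9 of 15 called above 10 TPM, against 32.4% of all genes, and 12 at or over 10 TPM in both libraries, against 41.3%. Hif1a, the oxygen-regulated alpha subunit gene of hypoxia-inducible factor 1, had 371 TPM in replicate 1 and 419 TPM in replicate 2. Epas1, which encodes the alpha subunit of factor 2, had 1.58 and 1.63 TPM. Among the listed targets the highest were Ldha, with 827 and 888 TPM, Pgk1, with 974 and 685 TPM, and Vegfa, with 370 and 231 TPM. Other listed targets were lower, and some were not called above 10 TPM. Egln3, a prolyl hydroxylase gene that hypoxia induces, was listed at 0 in both libraries. These are RNA levels at 1 condition, with no measure of oxygen, of protein or of a response.

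Of 11 regulators of mitochondrial biogenesis and steroid receptors 4 were called above 10 TPM, and 5 had at least 10 TPM in both libraries. These shares of 36.4% and 45.5% were near those of all genes, 32.4% and 41.3%. Esrrg, the gene of the orphan nuclear receptor ERR gamma, had 319 TPM in replicate 1 and 334 TPM in replicate 2. Sp1, of a GC box factor, had 87.8 and 19.8 TPM, Gabpa had 52.1 and 45.5 TPM, and Nrf1, the gene of nuclear respiratory factor 1, had 43.0 and 21.7 TPM. Ppargc1a, the coactivator gene known for driving biogenesis in muscle and brown fat, had 0.82 and 1.59 TPM, and Esrra had 1.99 and 1.87 TPM. Over all 9 lists 69 of 106 genes were called above 10 TPM, which is 65.1%, against 32.4% of all genes. The list of abundant mitochondrial proteins was named for abundance, and all lists were chosen with earlier results of these data known. This total is therefore a description and no independent evidence.

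**Figure D4:**
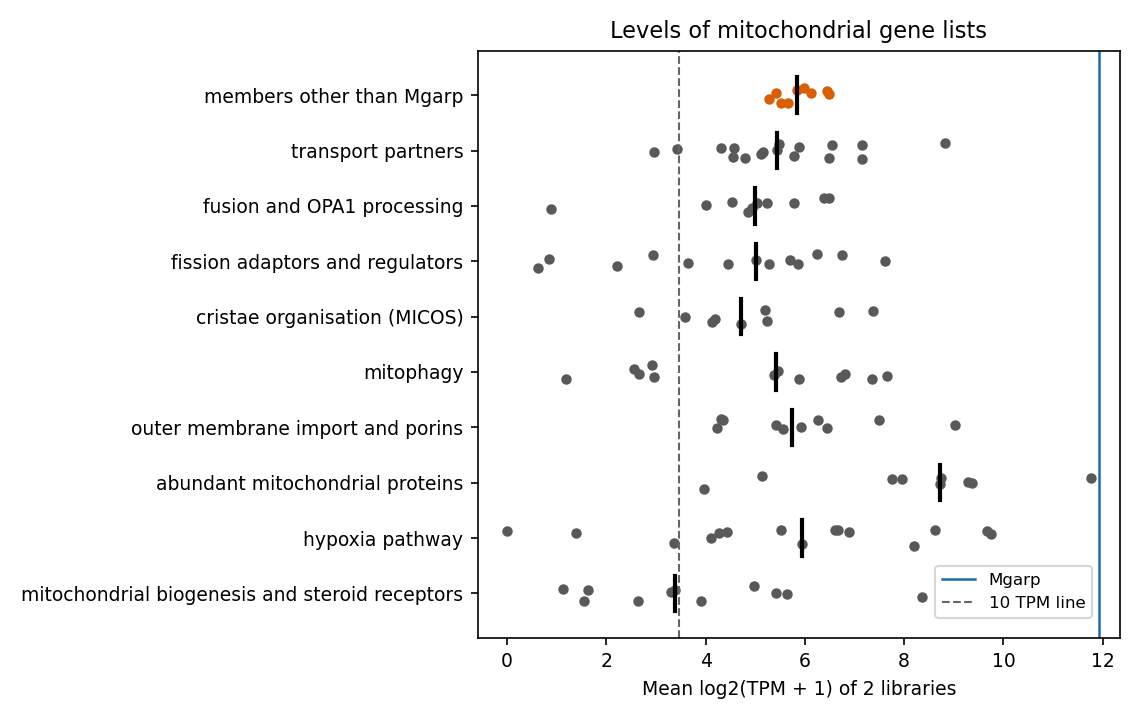
Mean log2(TPM + 1) of the 2 libraries for each gene of the 9 lists and of the 9 genes other than Mgarp, with a black bar at each median; the solid line is Mgarp and the dashed line 10 TPM. No gene of the lists lies to the right of Mgarp, and Atp5b comes closest.

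The labelled cell type was checked against its markers. The 7 type 5 genes summed to 680 TPM in replicate 1 and 759 TPM in replicate 2. Of them 5 reached 10 TPM in both libraries, with Chrm2 and Slitrk5 the exceptions. Htr3a, whose promoter drove the sort, is among the 5 and is no independent check, which leaves 4 of 6. Of 8 pan-bipolar and ON bipolar genes 8 reached 10 TPM in both, summing to 6835 TPM in replicate 1 and 6299 TPM in replicate 2. Of 9 rod photoreceptor genes 4 did, with sums of 1551 TPM in replicate 1 and 1402 TPM in replicate 2, led by the transducin subunit gene Gngt1 with 965 and 639 TPM. Cone genes summed to 187 and 41.8 TPM, Muller glia genes to 192 and 290 TPM, amacrine genes to 60.4 and 95.3 TPM and ganglion cell genes to 31.7 and 73.0 TPM, with 2 of 7, 4 of 8, 1 of 8 and 1 of 7 at or over 10 TPM in both. Microglia and vessel genes had 0 of 6, and red blood cell genes 2 of 5. Of all genes above 0 in either library, 41.3% reached 10 TPM in both. The type 5 genes, with Htr3a, had 71.4% and the pan-bipolar and ON bipolar genes 100%. Rod, Muller glia and red blood cell genes had shares near that of all genes, at 44.4%, 50% and 40%. In summed TPM, however, the 9 rod genes stood above the 7 type 5 genes in both libraries. Cone, amacrine and ganglion cell genes had lower shares, at 28.6%, 12.5% and 14.3%. The part of these other cells in the levels of Mgarp and the other 9 genes was not tested. In bulk RNA, few cells with much of an RNA and many cells with little of it cannot be told apart.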

How the data were processed

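RNA was measured in 2 libraries of sorted type 5 bipolar cells. Per the labels' protocols, cells were sorted into RNAlater and libraries made from total RNA with the Ovation amplification kit. The authors deposited 1 table of TPM. TopHat2 2.0.10, RSEM 1.2.28 and the build mm10 appear, without their roles, per the submitters' processing notes. Neither these nor the labels state the annotation, filters or strand setting. Reads shared with paralogues or processed copies may be split among them. A column header that misspells Htr3a was matched by its replicate number.

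TPM were used as deposited, on the scale log2(TPM + 1), with Python 3.11.15, numpy 2.4.6, pandas 2.3.3 and matplotlib 3.10.9. Levels were tested against 10 TPM in R 4.3.3 with limma 3.58.1 (intercept only, variance trend, one-sided, Benjamini-Hochberg over 19968 genes above 0 in either library, threshold 0.05) and tested on simulated data. The simulated spread depended on level alone, so genes with a wider spread of their own were not checked. limma's prior was infinite, so single adjusted p-values are not printed. SDs are over 2 libraries. No 2 groups were compared. Alternatives covered pseudocounts, filters, variance settings, lines of 1 and 30 TPM, rescaling without the mitochondrial genome and each library alone.

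The genes and lists were chosen with earlier results of these data known. The rule for named genes takes the 10 genes, the 4 highest and 2 lowest of each of 9 lists by mean TPM, and the 3 symbols each side of Mgarp in level with the 6 most alike. Gapdh, Tomm7 and single markers were named after their values were seen. Of the list genes 4 were found under older symbols, and 1 marker gene is not reported here. Promoter letters are RefSeq's on GRCm38.p6, and all 10 genes matched.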

Additional observations from a re-analysis of the deposited data

How the results depend on the processing

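The count of 9 genes called above 10 TPM was 9 under every alternative of variance, pseudocount, filter and rescaling that was run. It was 9 at a line of 1 TPM and 5 at a line of 30 TPM, where 16.2% of all genes were called. The count at or over 10 TPM in both libraries was 9 in each library alone, after rescaling and at 1 TPM. It was 8 at 30 TPM, where Fis1 dropped out. For these alternatives, other than limma at 30 TPM, the share of all genes was not computed. The counts there show only how far they moved. Mgarp ranked 11 by mean TPM, 5 among symbols outside the mitochondrial genome, and between 9 and 16 in the single libraries. Trak1 minus Trak2 was between -0.0387 and 0.10 in the single libraries, against 0.03 for their mean, and Mgarp minus Atp5b between -0.0349 and 0.38, against 0.17, so neither order held in both. Dnm1l minus Opa1 was 0.43 with a pseudocount of 0.1 and 0.39 with a pseudocount of 5, against 0.42, a shift beyond its very small SD. The count of genes lower in replicate 2 was 9, with 8 after rescaling and 7 after centring on the median of all genes. The share of all genes that were lower was computed for the deposited values alone. The counts of the 9 lists moved by over 1.5 times in 14 cases, all of them at a line of 1 or 30 TPM.

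No paired analysis was possible because the series has a single group. TPM hold no depth, so the counting error of low values is unknown. With 2 libraries no exact test can pass 0.05, and limma's calls rest on the spread of genes of like abundance.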
